A study of Mus musculus with 4 samples.

Results

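Sonic hedgehog is a secreted signal that patterns the ventral spinal cord, and 9 genes of its pathway are described here: Shh, Ptch1, Hhip, Boc, Cdon, Smo, Gli1, Gli2 and Gli3. They were chosen by name as a ligand, its receptors and binding proteins, the membrane transducer and the transcription factors of the pathway. All 9 were found among the 11747 genes or gene groups of the deposited table, and all 9 were kept by the filter on low values. The libraries came from motor neuron cultures made from a mouse embryonic stem cell line. That line derives from A172LoxP and was engineered to carry a transcription factor transgene that is switched on by doxycycline. Embryoid bodies, which are floating aggregates of the cells, received 0.5 µM all-trans retinoic acid and 1 µM purmorphamine, a hedgehog agonist, for 2 days in both groups. For a further 2 to 3 days they received 2 µg/mL doxycycline or vehicle. Each group has 2 libraries, both groups carry the transgene, and the labels name no second line or clone and do not say whether the libraries of a group are separate cultures. The p-values thus speak only of how far these libraries scatter, and that scatter can be technical.

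In the absence of ligand, the receptor Patched1 holds the membrane protein Smoothened inactive, and Gli proteins, Gli3 above all, are cut to repressors. Ligand bound to Patched1 with a co-receptor such as Boc or Cdon frees Smoothened, which enters the primary cilium and lets full-length Gli2 and Gli3 act as activators. Gli1, Ptch1 and Hhip are themselves induced, so Gli1 amplifies the response while Patched1 and Hhip restrain it. In the neural tube the notochord and floor plate secrete the ligand, and its graded level sets which ventral progenitor factors are on. Purmorphamine binds Smoothened directly, so in these cultures the pathway was stimulated downstream of ligand and receptor.

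RefSeq promoter windows on GRCm38.p6, from 250 bases before to 50 bases after a gene's start, were at hand for 6 of the 9 genes, namely Ptch1, Hhip, Cdon, Smo, Gli2 and Gli3. Ptch1 and Hhip are shown because both are textbook targets of Gli proteins whose transcripts were measured here. The lines give the 250 bases before the start that RefSeq's table gives, on the gene's strand, 5′ to 3′, with GC boxes (GGGCGG on either strand) in capitals. Ptch1 is at chr13:63565736-63565985 and Hhip at chr8:80058009-80058258, both on the minus strand. The bases after that start were found in a GENCODE transcript for Ptch1 but not for Hhip, and were not checked for Olig2. The last line shows 47 bases upstream of Olig2, a hedgehog-induced gene of motor neuron progenitors, at chr16:91225484-91225530 on the plus strand. There the capitals mark the first 7 bases of the Gli consensus, and the bases that follow differ from it. The 250 bases before the start of Nkx2-2, also a hedgehog-induced gene, do not hold those 7 bases on either strand.
Ptch1: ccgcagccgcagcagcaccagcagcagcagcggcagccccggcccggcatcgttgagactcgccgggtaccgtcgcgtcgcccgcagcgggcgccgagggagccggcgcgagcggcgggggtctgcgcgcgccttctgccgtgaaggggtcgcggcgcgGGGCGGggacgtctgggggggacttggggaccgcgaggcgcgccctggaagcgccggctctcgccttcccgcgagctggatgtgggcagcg
Hhip: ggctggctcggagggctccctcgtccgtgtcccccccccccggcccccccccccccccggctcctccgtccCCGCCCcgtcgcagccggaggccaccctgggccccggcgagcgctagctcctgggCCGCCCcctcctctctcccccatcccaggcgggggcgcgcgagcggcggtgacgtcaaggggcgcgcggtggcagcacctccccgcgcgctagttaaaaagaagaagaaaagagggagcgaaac
Olig2: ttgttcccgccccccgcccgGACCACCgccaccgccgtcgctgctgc

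The Gli consensus GACCACCCA was searched on both strands and occurs in 0.253% of all 32851 windows of 300 bases. It is in none of the 6 windows of the pathway genes, and neither are its first 7 bases, GACCACC, which 2.8% of windows hold. A GC box is in 4 of the 6 windows (Ptch1, Hhip, Gli2 and Gli3) and in 35.7% of all windows. These are matches of letters in a short window. No binding was measured.

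The 4 libraries are named by the numbers of the deposited columns, 1 and 7 without and 2 and 8 with doxycycline. Their values are normalized read counts, gene counts divided by 1 factor per library, and stand for an estimated 22434755 to 30235763 reads per library. Differences are log2(normalized count + 1) with minus without doxycycline, ± SE, from limma fitted to all 11747 rows, and a gene passed at an adjusted p under 0.05. Of all rows 0.579% passed as higher and 1.79% as lower, and the median difference of all rows was 0.0024. Transcripts of neurons fell in the same libraries. Of 12 neuronal markers 11 passed as lower, with a summed level of 170734 and 151619 normalized counts in libraries 1 and 7 against 83011 and 66666 in libraries 2 and 8. Without library 8, 6 of the 12 passed, and without limma's intensity trend 4 did. Markers of motor neurons, the labelled cell type, were present in every library. The 8 listed of 9 summed to 11777 and 11491 normalized counts without and 5291 and 4473 with doxycycline, and 7 of the 8 passed as lower (5 without library 8). The 1 listed motor neuron marker that did not pass had a value above 0, with both libraries with doxycycline above both without. Of 11 neural progenitor markers 2 passed as higher, Notch3 and Slc1a3. The summed level of the 11 was 43869 and 45114 without and 47497 and 51648 with doxycycline. Neither progenitor call held when any 1 library was left out (limma, adjusted p = 0.0752 to 0.139 for Notch3 and 0.0546 to 0.131 for Slc1a3) or without the intensity trend. None of the listed mesoderm (8) or pluripotency (6) markers passed, and 1 mesoderm marker did without library 7. In bulk RNA fewer cells of a type and less RNA per cell cannot be told apart. What part these shifts have in the values below was not tested.

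None of the 9 pathway genes passed the test in either direction, against 2.37% of all rows. At an unadjusted p under 0.05, 4 of the 9 differed (Gli1, Boc, Smo and Gli2), all higher with doxycycline, against 9.58% of all rows higher at that level. In 8 of the 9 the difference was above 0, against 50.6% of all rows, and the median of the 9 was 0.25, but Smo, Ptch1, Cdon and Hhip turned below 0 with libraries scaled on progenitor markers. For 5 genes (Shh, Boc, Smo, Gli1 and Gli2) both libraries with doxycycline lay above both without, against 26.7% of all rows. No gene showed the opposite order, which 26.5% of rows did. With 2 libraries a group an exact permutation test of a single gene cannot go below p = 0.33.

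**Figure D1:**
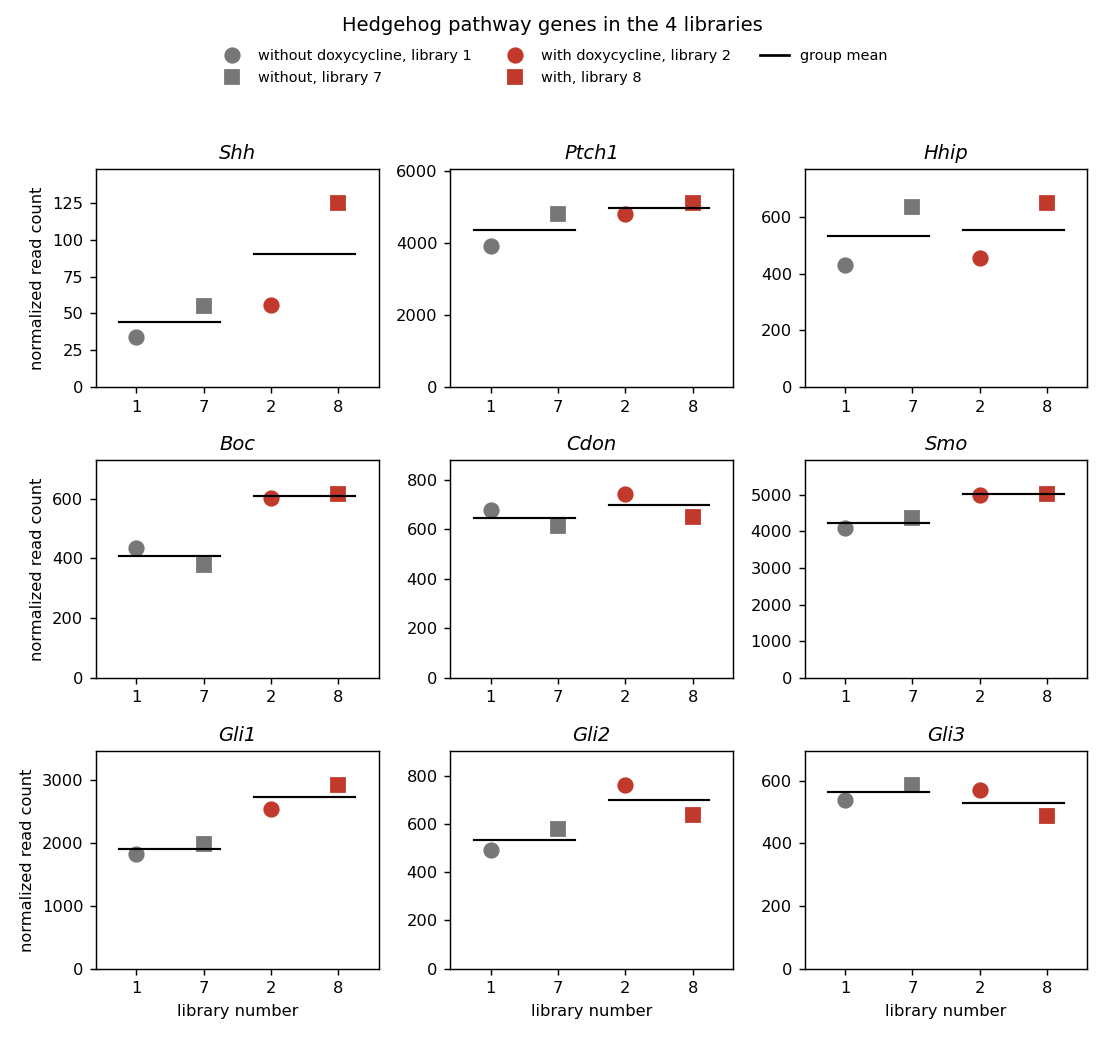
Normalized read counts (vertical axis, from 0) of the 9 genes in libraries 1 and 7 without doxycycline (grey) and 2 and 8 with doxycycline (red), with group means as lines. Boc, Smo, Gli1, Gli2 and Shh have both red points above both grey points, while Hhip is high in libraries 7 and 8 of either group.

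Shh, the ligand, was the least abundant of the 9. It had 34.0 and 54.8 normalized counts in libraries 1 and 7 against 55.4 and 125 in libraries 2 and 8. Library 8 stands apart, and library 2 lies just above library 7. These values rest on an estimated 38, 51, 47 and 142 reads. The 95% Poisson interval, which covers counting error only, was 40.8 to 72.0 for library 7 and 40.7 to 73.7 for library 2. The difference between these 2 was therefore not detectable at this depth. The group means were 44.4 ± 14.7 and 90.3 ± 49.4 normalized counts (SD, n = 2), a difference of 0.93 ± 0.48 with a 95% interval of -0.24 to 2.11 (limma, adjusted p = 0.327). Without library 8 it was 0.35 and without library 2 it was 1.52. Libraries 7 and 8 were also higher than 1 and 2 for this gene, by 0.92 on average.

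Embryoid bodies can hold floor plate and endoderm, both of which make hedgehog ligands. Of 7 floor plate markers 5 were listed, 3 of which are also hedgehog-induced genes (Foxa1, Foxa2 and Nkx2-9), and none passed. Their summed level was 3775 and 5808 normalized counts in libraries 1 and 7 against 5971 and 8457 in libraries 2 and 8. That is the same order of libraries as for Shh, although libraries 7 and 2 could not be told apart for Shh. How many of all rows have this order was not computed. Ntn1 was the largest part of the sum. Ntn1, Spon1 and Nkx2-9 kept that order, whereas Foxa1 and Foxa2 did not. Foxa2, the factor that specifies floor plate, was at 560.3 and 1032 without and 755 and 1283 with doxycycline. Libraries 7 and 8 thus both lay above 1 and 2 for Foxa2. Foxa1 was at 234 and 360 without and 223 and 270 with doxycycline, with a difference of -0.24 ± 0.23. Spon1, a secreted floor plate protein, had a difference of 0.68 ± 0.21 and Ntn1, the guidance cue netrin 1, one of 0.68 ± 0.23, and neither passed (limma, adjusted p = 0.151 and 0.178). Both passed without library 7 (limma, adjusted p = 0.0229 and 0.0187). Ihh, the Indian hedgehog ligand of endoderm, was at 169 and 336 without and 147 and 248 with doxycycline, so that it was high in libraries 7 and 8. The summed level of the 6 listed of 9 endoderm markers was also higher in libraries 7 and 8, at 11872 and 15962 without and 11325 and 15033 with doxycycline. Gata4 and Gata6 made up most of that split, whereas Cdh1 was lower in library 7 than in 1 and in 8 than in 2. Corin and Lmx1b of the floor plate list and Afp, Apoa1 and Ttr of the endoderm list were not in the table. What part floor plate or endoderm cells have in the Shh values was not tested.

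Ptch1, the ligand's receptor and a target that feeds back on the pathway, was at 3912.5 and 4805 normalized counts in libraries 1 and 7 and at 4797 and 5117 in libraries 2 and 8. Library 1 was the lowest, and libraries 7 and 2 were nearly equal, so that the groups overlapped. The means were 4359 ± 631 and 4957 ± 226 (SD, n = 2), with a difference of 0.19 ± 0.11 and a 95% interval of -0.07 to 0.46 (limma, adjusted p = 0.370). In fold terms that interval runs from 0.95 to 1.37. The difference was 0.044 without library 1 and 0.34 without library 7.

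Hhip, a membrane protein that binds and sequesters hedgehog ligand, was at 432 and 637 in libraries 1 and 7 and at 456 and 652 in libraries 2 and 8. The values split by library number, and the groups overlapped. Libraries 7 and 8 exceeded 1 and 2 by 0.54, whereas the doxycycline difference was 0.06 ± 0.24 (limma, adjusted p = 0.923), which turned to -0.22 without library 1 and -0.20 without library 8. Over all rows, 16.5% had both libraries 7 and 8 above both 1 and 2.

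Boc, a co-receptor of the immunoglobulin superfamily, had the smallest p among the receptors and binding proteins. It was at 435 and 378 normalized counts in libraries 1 and 7 and at 601 and 617 in libraries 2 and 8. The means were 407 ± 40.5 and 609 ± 11.4 (SD, n = 2), a difference of 0.59 ± 0.11 with a 95% interval of 0.31 to 0.86, or 1.24- to 1.82-fold. It did not pass over all rows (limma, adjusted p = 0.0636) and ranked 395 of 11747 by p, where 278 rows passed. Of all rows 2.07% had a larger difference.

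Cdon, the related co-receptor, gave overlapping groups, with 677 and 614 in libraries 1 and 7 against 744 and 648 in libraries 2 and 8. Its difference was 0.11 ± 0.11, with an interval of -0.17 to 0.38 (limma, adjusted p = 0.630), and it ranged from 0.0083 to 0.21 when 1 library was left out (libraries 2 and 8). Within each library the ratio of Boc to Cdon normalized counts does not depend on the scaling between libraries. It was 0.643 and 0.615 without and 0.808 and 0.952 with doxycycline. It was higher in both libraries with doxycycline, by 0.48 on the log2 scale.

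Smo, the transducer that purmorphamine binds, was at 4081 and 4372 in libraries 1 and 7 and at 5002 and 5029 in libraries 2 and 8. The libraries with doxycycline were close to each other and both above the others. The difference was 0.25 ± 0.07, or 1.06- to 1.33-fold by its 95% interval, and did not pass (limma, adjusted p = 0.118). The ratio of Ptch1 to Smo was 0.959 and 1.10 without and 0.959 and 1.02 with doxycycline, so the groups overlapped.

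Gli1, the activator that is itself a target of the pathway, was at 1820.4 and 1987 normalized counts in libraries 1 and 7 and at 2541 and 2931 in libraries 2 and 8. The lower of the libraries with doxycycline lay well above the higher of those without. The means were 1904 ± 118 and 2736 ± 276 (SD, n = 2), a difference of 0.52 ± 0.10 with a 95% interval of 0.28 to 0.76, or 1.22- to 1.69-fold. Gli1 had the smallest p of the 9 genes and ranked 358 of 11747, just short of the threshold (limma, adjusted p = 0.0581). With robust empirical Bayes both Gli1 and Boc passed (limma, adjusted p = 0.0393 and 0.0495). Without the intensity trend both were further from the threshold (limma, adjusted p = 0.116 and 0.0915). When 1 library was left out, the difference ranged from 0.42 to 0.62 for Gli1 and from 0.48 to 0.69 for Boc. That of Gli1 was 0.48 between libraries 2 and 1 and 0.56 between libraries 8 and 7.

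Gli2, the main activator early in the response, was at 492 and 578 in libraries 1 and 7 and at 763 and 636 in libraries 2 and 8. Library 2 was the highest, and library 8 lay closer to library 7 than to library 2. The difference was 0.39 ± 0.14 (limma, adjusted p = 0.188), made up of 0.63 between libraries 2 and 1 and 0.14 between 8 and 7. It was 0.25 without library 2.

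Gli3, the main repressor of the family, was the one gene with a value below 0. It was at 539 and 587 in libraries 1 and 7 and at 568 and 488 in libraries 2 and 8, so that the groups overlapped. The difference was -0.10 ± 0.12 with an interval of -0.39 to 0.19 (limma, adjusted p = 0.691), and it was 0.0145 without library 8.

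The balance among the Gli genes can be read within each library, free of the scaling between libraries. The ratio of Gli1 to Gli3 normalized counts was 3.38 in both libraries without doxycycline and 4.47 and 6.01 in libraries 2 and 8. That of Gli2 to Gli3 was 0.912 and 0.984 without and 1.34 and 1.30 with doxycycline. Both activator genes were thus higher relative to Gli3 in both libraries with doxycycline, by 0.62 for Gli1 and 0.48 for Gli2 on the log2 scale. The ratio of Gli1 to Gli2 overlapped between groups, at 3.70 and 3.44 without and 3.33 and 4.61 with doxycycline. The ratio of Gli1 to Ptch1 was 0.465 and 0.414 without and 0.530 and 0.573 with doxycycline, and did not overlap. These ratios are descriptions of 2 libraries a group, where an exact permutation test cannot go below p = 0.33. How often other gene pairs set the groups apart, here or for Boc and Cdon, was not computed. Transcripts do not show how much Gli3 protein was cut.

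**Figure D2:**
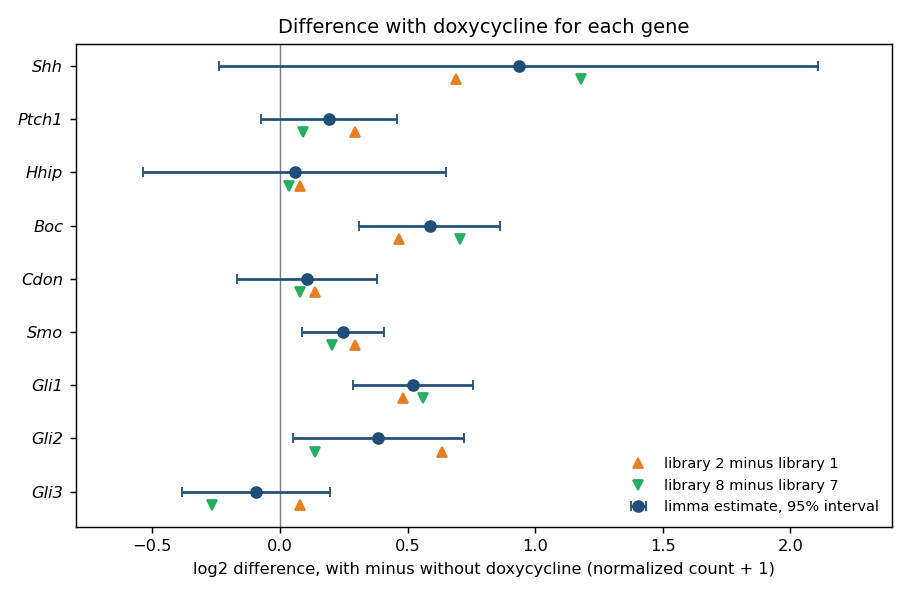
Difference with minus without doxycycline on the log2(normalized count + 1) scale for each gene, with limma's 95% interval, and the differences of library 2 minus 1 and 8 minus 7 as triangles. Intervals of Boc, Smo, Gli1 and Gli2 lie above 0 before adjustment over all rows, and the interval of Shh is the widest.

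Levels were compared between genes per kilobase, using the GENCODE M21 transcript matched to each RefSeq accession of the table (2847 to 9074 bases). Those transcripts are annotated on GRCm38 and the counted models on mm9 may differ from them. Without doxycycline Smo was the most abundant, at 1118 ± 54.6 normalized counts per kilobase (SD, n = 2), followed by Ptch1 at 564 ± 81.7 and Gli1 at 469 ± 29.1. Boc (91.3), Cdon (89.5), Gli2 (80.5), Gli3 (68.9) and Hhip (58.9) formed a lower band in normalized counts per kilobase, and Shh was last at 15.6 ± 5.17. In that band, the 2 libraries of Boc and Cdon, of Boc and Gli2, of Cdon and Gli2, and of Gli3 and Hhip overlapped. With doxycycline Gli1, at 674 ± 68.1, and Ptch1, at 642 ± 29.3 normalized counts per kilobase, overlapped, while they had not without it. Boc, at 137 ± 2.57, then lay above Gli2 at 105 ± 13.5 and Cdon at 96.5 ± 9.37 in both libraries.

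Hhip separated by library number, and Shh differed about as much by library number as by doxycycline. Averaged over both groups, libraries 7 and 8 minus 1 and 2 gave 0.92 for Shh and 0.54 for Hhip, 0.19 for Ptch1 and 0.17 for Gli1. The same quantity was between -0.17 and 0.05 for Cdon, Boc, Gli3, Gli2 and Smo. Nothing in the labels says what the numbers stand for.

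**Figure D3:**
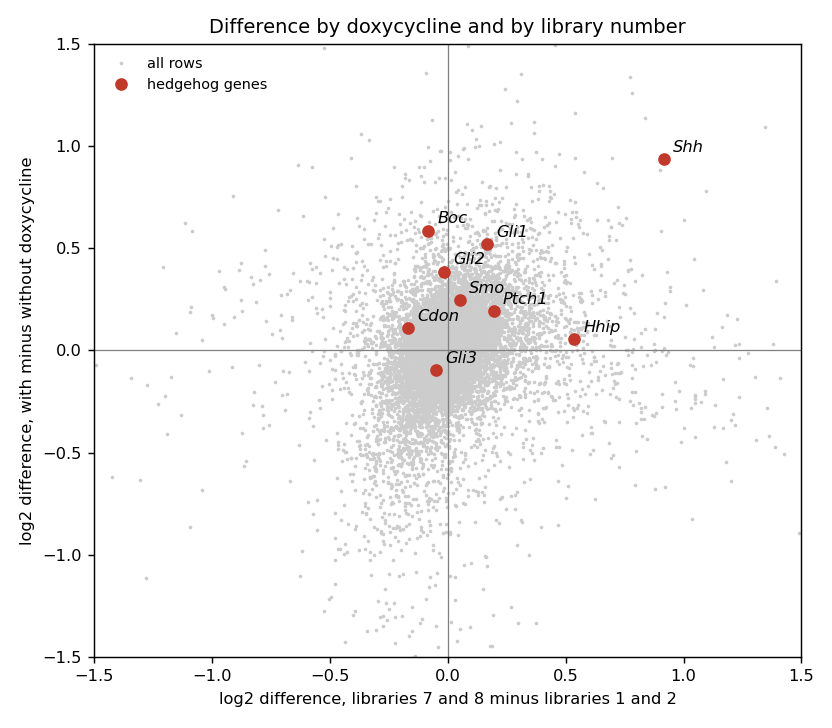
Each point is a row of the table, with the log2 difference of libraries 7 and 8 minus 1 and 2 on the horizontal axis and with minus without doxycycline on the vertical axis, and the 9 genes in red. Shh and Hhip lie to the right at 0.92 and 0.54, while Boc, Gli1 and Gli2 lie high near the vertical midline; 74 rows fall outside the axes at 1.5.

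Of 6 listed genes beside the 9 for other ligands and ligand release none rose and 1 fell, Disp2, a relative of the ligand exporter Dispatched, from 1355 ± 58.5 to 801 ± 64.7 normalized counts (-0.76 ± 0.09; limma, adjusted p = 0.0263). That call was lost without library 1 (limma, adjusted p = 0.052) or 8 (limma, adjusted p = 0.109), and without the intensity trend (limma, adjusted p = 0.0601). None of 6 further reception genes passed, with a median of 0.06. Among these, Gpc3, a proteoglycan that competes for ligand, had the smallest p and a difference of -0.43 ± 0.10 (limma, adjusted p = 0.101). Hhipl1, named for its likeness to Hhip, had 0.44 ± 0.21. Gas1, a co-receptor that also stands in the list of hedgehog-induced genes, had 0.12 ± 0.08.

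Of 27 listed genes of signal transduction and Gli control 1 fell and none rose, with a median of -0.05. The 1 was Arhgap36, which blocks protein kinase A and so favours Gli activators. It was at 5998 and 5532 normalized counts in libraries 1 and 7 and at 780.5 and 480 in libraries 2 and 8, a change of -3.23 ± 0.22 (limma, adjusted p = 0.00743), and it passed whichever library was left out. In the same libraries the targets Gli1, Ptch1 and Hhip had values of 0.52, 0.19 and 0.06, and none passed. Those of Ptch1 and Hhip turned below 0 when libraries were scaled on progenitor markers. What part Arhgap36 has in these values was not tested. Of 26 genes for transport in the primary cilium, the organelle in which Smoothened acts, none passed, and the median was 0.06. Those with the smallest p were Ttc21b, a subunit of retrograde transport (0.35 ± 0.09), and the motor subunits Kif3b (-0.33 ± 0.10) and Kif3a (-0.30 ± 0.10), with adjusted p = 0.107, 0.156 and 0.180 in limma.

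Among 17 listed hedgehog-induced genes 2 rose and none fell, with a median of 0.12, which turned below 0 when libraries were scaled on progenitor markers. Nkx2-2, the factor of the progenitors closest to the floor plate, rose from 52.7 and 92.3 normalized counts in libraries 1 and 7 to 383 and 613 in libraries 2 and 8 (2.78 ± 0.34; limma, adjusted p = 0.0251). Sfrp1, a secreted Wnt antagonist, rose from 1669 ± 87.7 to 2739 ± 75.0 (0.72 ± 0.07; limma, adjusted p = 0.0205). Neither passed without library 8 (limma, adjusted p = 0.108 and 0.0911), and Sfrp1 did not without library 2 (limma, adjusted p = 0.0527). Both calls were also lost without the intensity trend (limma, adjusted p = 0.0636 and 0.0522). Olig2 was at 2492 and 2835 without and 2891 and 3160 with doxycycline, with a value of 0.19 ± 0.09 (limma, adjusted p = 0.311), not past the test. Of 11 genes that hedgehog represses 4 were listed, 3 of them with values below 0, and the median was -0.33. Irx5 had -0.53 ± 0.09 and Msx2 -0.13 ± 0.21, and neither passed (limma, adjusted p = 0.0548 and 0.762). Irx3, a factor of more dorsal progenitors, passed, falling from 1140.4 ± 44.2 to 778 ± 33.4 (-0.55 ± 0.09; limma, adjusted p = 0.0418). It did not pass without library 1, 2 or 8 (limma, adjusted p = 0.131, 0.131 and 0.151), nor without the intensity trend (limma, adjusted p = 0.076). Pax6, in the same list, had 0.52 ± 0.17 (limma, adjusted p = 0.161), and passed as higher without library 1 (0.76; limma, adjusted p = 0.0276).

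**Figure D4:**
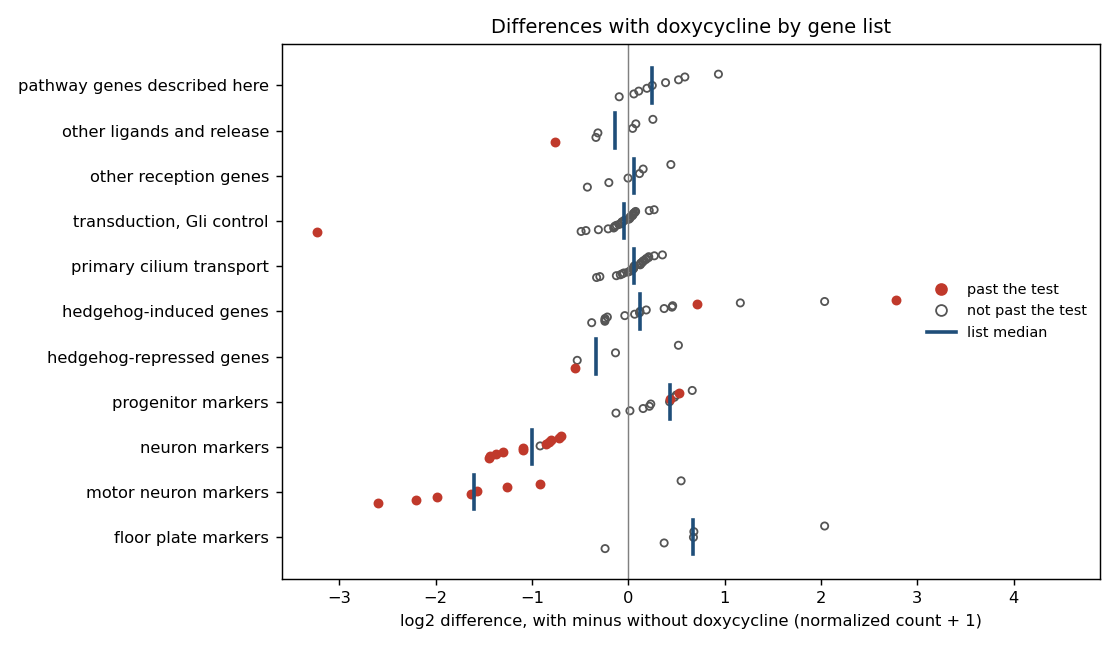
Log2 difference with minus without doxycycline for each listed gene (points, filled where past the limma test) by gene list, with list medians as bars. The 9 pathway genes, with a median of 0.25, hold no filled point, whereas 11 of 12 neuron markers and 7 of 8 listed motor neuron markers lie filled below 0.

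Scaling bears on the direction of the smaller values. When each library was centred on the 11 progenitor markers, the median of all rows moved to -0.32, and 61 rows passed as higher and 3778 as lower, against 68 and 210 with the authors' scaling. On that scale Boc (0.27), Gli1 (0.20), Gli2 (0.07) and Shh (0.62) had values above 0. Those of Smo (-0.072), Ptch1 (-0.13), Cdon (-0.21) and Hhip (-0.26) turned below 0, and Gli3 was at -0.415 (limma, adjusted p = 0.0573). The median of the 9 turned to -0.07. None of the 9 passed on the progenitor scale, whereas Gpc3, Kif3b and Kif3a passed there as lower (limma, adjusted p = 0.00788, 0.0153 and 0.0178). On that scale 32.2% of all rows passed as lower and 0.519% as higher. The standard errors changed there as well, so such counts do not rest on the shift alone. Of the 27 transduction genes 13 then passed as lower (median -0.37), and of the 26 cilium genes 5 did (median -0.26). Of the 17 hedgehog-induced genes 4 passed as higher and 3 as lower (median -0.20), and of the 4 repressed genes 2 passed as lower.

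Profiles close to those of the pathway genes were sought by the Euclidean distance between log2 values centred on their mean over the 4 libraries, among rows with a mean of at least 50. The 3 nearest rows were Prrg1, Tmc7 and Rin3 for Gli1, Tmem176b, Rad51l3 and Dnaja4 for Ptch1, and Rad51c, Fbxo2 and Jam2 for Boc. The nearest lay 0.02 (Prrg1), 0.02 (Tmem176b) and 0.03 (Rad51c) away on the log2 scale. With 4 libraries many rows share any one profile.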

How the data were processed

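TruSeq libraries were sequenced on an Illumina HiSeq, per the labels' protocols. Tools listed in the submitters' processing notes are DESeq, HTSeq, TopHat2 and CASAVA, with mm9 as the build. The deposited signal is a normalized read count per gene; 100% of values under 10000 lie within 0.1 of a multiple of 1 step per library, from which reads were estimated. No row has fewer than 101 estimated reads in its highest library, so weaker genes are not listed. Columns were matched to groups by the treatment initials in their names, not to single samples.

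Values were analysed as log2(value + 1) after a filter, a mean of at least 10, that removed no row. Groups were compared with limma 3.58.1 in R 4.3.3, by two-sided moderated tests with a trend on intensity, adjusted by Benjamini-Hochberg over 11747 rows, on 2 residual and 3.83 prior degrees of freedom. The fit was also run on simulated counts. There, libraries were drawn independently and the spread was shuffled over genes, so that run does not show how the test behaves on these libraries. Symbols came from the table for 11335 rows and from RefSeq (GRCm38.p6) by accession for 375. No source used here says whether counting was stranded, so antisense overlaps cannot be told apart. The genes and lists were chosen with earlier results of these data known. Named besides the 9 genes are list members past the test, or else up to 3 with the smallest p, and nearest profiles. Gas1, Ihh, Gata4, Gata6, Cdh1, Foxa1, Foxa2, Olig2, Pax6, Irx5, Msx2, Spon1 and Ntn1 were chosen after their values were seen. The induced gene and some genes of the lists are not reported here.

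As alternatives, each library was left out, libraries were paired by column number, scaling was by quantiles, TMM or progenitor markers, the pseudocount was 0.5 or 5, the minimum mean 50 or none, and limma ran with robust empirical Bayes or with no trend. Python 3.11.15, pandas 2.3.3, numpy 2.4.6, scipy 1.17.1 and matplotlib 3.10.9 were used.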

Additional observations from a re-analysis of the deposited data

How the results depend on the processing

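With 2 libraries a group the test has 2 residual degrees of freedom, and Shh is further limited by its reads. Scaling on progenitor markers shifted all rows by the same amount. That turned Ptch1 to -0.13, Hhip to -0.26, Cdon to -0.21, Smo to -0.072, Gas1 to -0.20 and Olig2 to -0.13. On that scale 3778 rows passed as lower, against 210. The standard errors changed there too, from 0.0959 to 0.12 for Gli1 and from 0.35 to 0.247 for Foxa2. These counts thus do not rest on the shift alone and are not comparable with those of the main fit. Without the intensity trend 27 rows were higher and 78 lower. Robust empirical Bayes gave 132 higher rows and 2 of the 9 genes, Gli1 and Boc; the cause was not tested. Leaving out 1 library gave 2 to 156 rows higher, 42 to 338 lower and 0 to 1 of the 9 genes, Gli1 without library 7. It gave -0.22 to 0.34 for Hhip, -0.21 to 0.0145 for Gli3, -0.069 to 0.81 for Foxa2 and -0.81 to 0.18 for Ihh. The pseudocounts, filters, quantile and TMM scaling changed no call or direction of the 9 genes.

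The columns carry no replicate number of the labels. A replicate block by column number (1 with 2, 7 with 8) was fitted nonetheless. It gave 1636 rows higher and 1872 lower, and 6 of the 9 genes higher, all but Hhip, Cdon and Gli3. The block leaves fewer residual degrees of freedom than the main fit has. Its p-values rest almost wholly on a variance pooled over rows, so its counts are not comparable with those of the main fit. Deviations from the group mean had a correlation of 0.63 over rows between libraries 1 and 2. That is a hint from the data and not from the design.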
